A study of Caenorhabditis elegans with 12 samples.

Results

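The proteasome subunit genes are the 33 rows of the counts table whose symbol begins with pas, pbs, rpt or rpn followed by a number, out of 46778 genes in the table. They comprise 7 alpha subunits (pas-1 to pas-7) and 7 beta subunits (pbs-1 to pbs-7) of the 20S core, 10 genes of the base of the 19S cap (rpt-1 to rpt-6, rpn-1, rpn-2, rpn-10 and rpn-13), and 9 genes of its lid (rpn-3, rpn-5, rpn-6.1, rpn-6.2, rpn-7, rpn-8, rpn-9, rpn-11 and rpn-12). In the reference annotation of WBcel235 all 33 are protein coding, with 10 on chromosome I, 7 on II, 8 on III, 3 on IV and 5 on V.

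The proteasome is the cell's main machine for degrading proteins that carry a chain of ubiquitin. The alpha subunits form outer rings that gate the entry to a closed chamber, and the beta subunits form inner rings, in which only the subunits encoded by pbs-1, pbs-2 and pbs-5 carry peptidase sites. The cap binds the chain through receptors, removes it with the metalloprotease RPN-11, and unfolds the substrate with a ring of RPT ATPases that threads it into the core. Each finished particle holds its subunits in fixed proportions, and in Caenorhabditis elegans the transcription factor SKN-1A raises the subunit genes when proteasome activity falls short.

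Whole Caenorhabditis elegans larvae were taken from ced-3(n717) worms, mutant in the caspase gene of programmed cell death, from pmk-1(km25) worms, mutant in a p38 MAP kinase of innate immunity, and from wild type N2 (WT). All were hatched without food over 24 h from eggs of bleached day-1 adults, and L1 larvae were fed the bacterium OP50 at 20 °C for 18 h, which brought almost the whole WT population to L3. RPF (ribosome-protected fragments, the stretches of mRNA that a ribosome shields from nuclease) and total mRNA were each sequenced from 2 samples per genotype, which gives 12 libraries. The labels call the replicates independent and biological but name no separate cultures, so p-values measure only the spread between these samples.

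Library totals were 6708805 to 10115985 counts in RPF and 15471380 to 17150137 in mRNA. Levels are CPM, counts scaled to a common library total, with TMM factors fitted within RPF or within mRNA, and levels of different genes are given per kb of coding length. The mRNA of ced-3 averaged 5.92 ± 0.7 CPM in ced-3 and 2.43 ± 0.19 in pmk-1, against 3.65 ± 1.9 in WT, and that of pmk-1 39.4 ± 2.2 CPM in ced-3 and 35.3 ± 0.14 in pmk-1, against 36.3 ± 1.1 in WT (SD, n = 2 each). RPF of ced-3 overlapped between its mutant and WT, with 4.61 ± 1.0 CPM in ced-3 and 3.0 ± 0.72 in pmk-1, against 4.54 ± 1.9 in WT. RPF of pmk-1 was lower in both pmk-1 libraries than in the other 4, with 45.5 ± 4.2 CPM in ced-3 and 25.2 ± 0.27 in pmk-1, against 49.7 ± 3.6 in WT. Markers of intestine, body wall muscle, neurons, pharynx and germline (5 genes each) and of moulting (6 genes) were all detected in all 12 libraries, and of 5 epidermis markers 4 or 5 were, while the 5 sperm markers summed to at most 1.0 CPM. Exons of 11 of the 33 genes overlap another gene, by 4 bases (pas-7 with lact-2) to 212 bases (rpn-7 with nemt-1), and since the use of strand in counting was not stated, reads in those stretches cannot be assigned with certainty.

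In every library the median core gene stood above the median cap gene per kb. Over the 14 core genes and 18 cap genes, all but rpn-6.2, the ratio of the core median to the cap median in RPF was 1.92 and 1.74 in ced-3 and 1.77 and 1.75 in pmk-1, against 1.90 and 1.93 in WT. In mRNA it was 1.61 and 1.48 in ced-3 and 1.59 and 1.71 in pmk-1, against 1.86 and 1.73 in WT. In RPF, 13 or 14 of the 18 cap genes lay below the lowest core gene of the same library, and 11 to 13 of the 14 core genes lay above the highest cap gene. In mRNA the ranges overlapped more. There 2 to 4 cap genes lay below the lowest core gene, and 7 to 10 core genes lay above the highest cap gene. With exon length in place of coding length, the mean RPF ratio was 1.64 in ced-3 and 1.62 in pmk-1, against 1.79 in WT. The mean mRNA ratio was then close to it, at 1.61 in ced-3 and 1.65 in pmk-1, against 1.82 in WT. This closeness held only with exon length for both assays. The mean RPF ratio by coding length, at 1.83 in ced-3 and 1.76 in pmk-1, against 1.91 in WT, was above these mRNA values in each genotype.

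**Figure D1:**
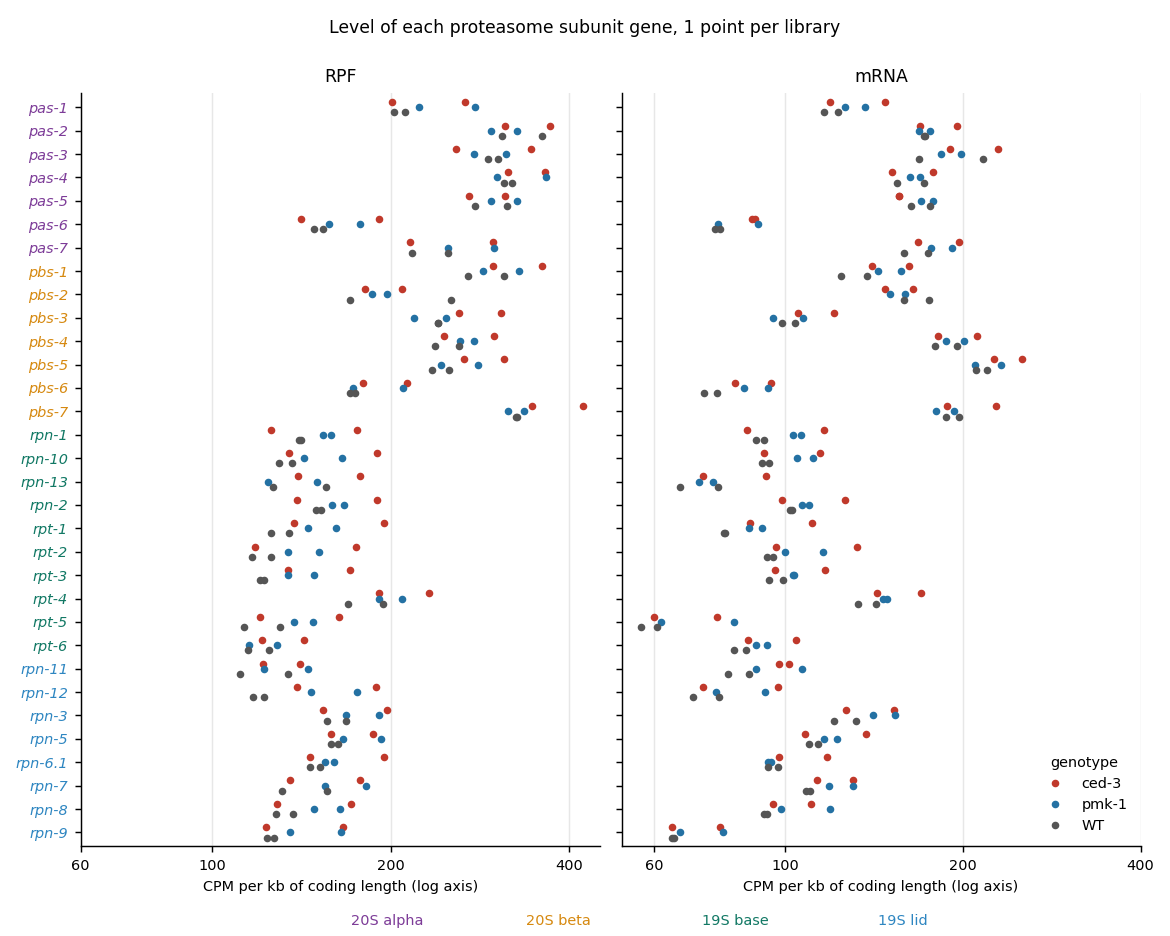
Level of 32 proteasome subunit genes (all but rpn-6.2) in CPM per kb of coding length on a log axis, RPF on the left and mRNA on the right, with 1 point per library coloured by genotype and gene names coloured by subcomplex. In RPF the core genes sit to the right of most cap genes, while in mRNA the lowest core genes, pas-6 and pbs-6, lie among the cap genes. The cap genes are packed more tightly in RPF, where their coefficient of variation was 11.5% to 14.5%, than in mRNA, where it was 20.5% to 23.3%.

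The 3 peptidase genes differed in level. The gene pbs-5 (WBGene00003951, chromosome I, 14719167 to 14720477), which encodes the subunit with chymotrypsin-like activity, had RPF levels per kb of 266 and 311 in ced-3 and 281 and 244 in pmk-1, against 251 and 235.3 in WT. Its mRNA levels per kb were 225 and 252 in ced-3 and 233 and 210.0 in pmk-1, against 219.9 and 211 in WT, the highest mean of all beta subunits. Both ced-3 libraries were above both WT libraries in each assay, while the pmk-1 and WT ranges overlapped in each. For pbs-1 (WBGene00003947, chromosome IV, 1708814 to 1709745), which encodes the caspase-like subunit, the RPF levels per kb were 298 and 361 in ced-3 and 329.8 and 287 in pmk-1, against 311 and 269.7 in WT. The mRNA levels of pbs-1 per kb were 140.5 and 162 in ced-3 and 157 and 144 in pmk-1, against 124 and 137 in WT. The genotypes overlapped in RPF, and in mRNA all 4 mutant libraries were above both WT libraries. The trypsin-like subunit gene pbs-2 (WBGene00003948, chromosome I, 12967216 to 12968280) had RPF levels of 181 and 209 CPM per kb in ced-3 and 197 and 186 in pmk-1, against 253 and 171 in WT. In mRNA pbs-2 had 148 and 164 CPM per kb in ced-3 and 150.4 and 159.5 in pmk-1, against 175 and 159 in WT. Its highest RPF value was that of 1 WT library, and the genotypes overlapped in both assays.

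Among the other core genes, the highest mean RPF level per kb was that of the beta subunit gene pbs-7 (WBGene00003953, chromosome I, 8695205 to 8696301), with 346 and 422 in ced-3 and 336 and 316 in pmk-1, against 327 and 325 in WT. Its mRNA levels per kb were 188 and 228 in ced-3 and 180.2 and 193 in pmk-1, against 197 and 187 in WT. In RPF both ced-3 libraries lay above the other 4, and in mRNA the genotypes overlapped. The lowest beta subunit gene in both assays was pbs-6, with RPF levels per kb of 179 and 213 in ced-3 and 209.7 and 173 in pmk-1, against 171 and 174 in WT. Its mRNA levels per kb were 82.3 and 94.5 in ced-3 and 93.6 and 85.2 in pmk-1, against 72.8 and 76.7 in WT. The mRNA levels of pbs-6 in all 4 mutant libraries were above both WT libraries, and in RPF 1 pmk-1 library lay within the WT range. Among the alpha subunit genes, pas-4 had the highest mean in RPF, with 315 and 365 CPM per kb in ced-3 and 366 and 302 in pmk-1, against 321 and 311 in WT. The highest mean in mRNA was that of pas-3, with 190.5 and 229 CPM per kb in ced-3 and 199 and 184 in pmk-1, against 216 and 169 in WT. For both of these the genotypes overlapped. The lowest alpha subunit gene, pas-6, had RPF levels of 141 and 191 CPM per kb in ced-3 and 177 and 157 in pmk-1, against 154 and 149 in WT. Its mRNA levels per kb were 87.7 and 88.9 in ced-3 and 90.1 and 77.1 in pmk-1, against 75.9 and 77.5 in WT. The 2 ced-3 libraries of pas-6 were above WT in mRNA alone, and the 2 pmk-1 libraries in RPF alone.

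In the cap, the ATPase gene rpt-4 had the highest level of the base, with RPF levels of 192 and 232 CPM per kb in ced-3 and 209 and 191 in pmk-1, against 169.6 and 194 in WT. In mRNA rpt-4 had 143 and 169.7 CPM per kb in ced-3 and 149 and 146 in pmk-1, against 142 and 133 in WT. The mutants were above WT in mRNA, and in RPF the ranges overlapped. The base gene with the lowest mean in RPF was the ATPase gene rpt-6, with 121 and 143 CPM per kb in ced-3 and 128 and 115 in pmk-1, against 125 and 115 in WT. In mRNA it was another ATPase gene, rpt-5, with 59.8 and 76.6 CPM per kb in ced-3 and 81.7 and 61.6 in pmk-1, against 56.9 and 60.6 in WT. The RPF of rpt-6 overlapped between genotypes, and the mRNA of rpt-5 was above WT in both pmk-1 libraries and 1 ced-3 library. In the lid, rpn-3 was highest in both assays, with RPF levels per kb of 154 and 197 in ced-3 and 191 and 168 in pmk-1, against 168 and 156 in WT. Its mRNA levels per kb were 127 and 153 in ced-3 and 153 and 141 in pmk-1, against 132 and 121 in WT. Both pmk-1 libraries of rpn-3 were above WT in each assay, and the ced-3 range overlapped that of WT. The lowest lid gene in RPF was that of the deubiquitinase, rpn-11, with 122 and 141 CPM per kb in ced-3 and 145 and 122 in pmk-1, against 134 and 111 in WT. The lowest in mRNA was rpn-9, a scaffold gene of the lid, with 64.2 and 77.6 CPM per kb in ced-3 and 78.4 and 66.3 in pmk-1, against 64.7 and 64.2 in WT. The RPF of rpn-11 overlapped between genotypes, and the mRNA of rpn-9 was above WT in both pmk-1 libraries.

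Levels per kb varied less among the genes of the core, and among those of the cap, in RPF than in mRNA. The coefficient of variation among the 14 core genes was 23.8% and 21.98% in ced-3 RPF against 27.3% and 28.7% in ced-3 mRNA. In pmk-1 it was 20.1% and 20.5% in RPF against 25.7% and 28.0% in mRNA, and in WT 23.7% and 22.6% in RPF against 31.3% and 27.4% in mRNA. Among the 18 cap genes it was 11.5% to 14.5% over the 6 RPF libraries and 20.5% to 23.3% over the 6 mRNA libraries. The RPF value was the lower one in 6 of 6 worm samples for the core and for the cap, also when mRNA was divided by exon length. These are descriptions across genes of the same libraries, with no test.

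The lid gene rpn-6.2 (WBGene00010309, chromosome III, 8999817 to 9001999) stood apart from all other members. It is a paralog of rpn-6.1, whose product clamps the cap onto the core, and reads that match both cannot be assigned with certainty. It had 5 and 1 RPF counts in ced-3 and 3 and 2 in pmk-1, against 0 and 2 in WT, and so failed the filter on low counts in RPF. Its mRNA counts were 44 and 32 in ced-3 and 42 and 28 in pmk-1, against 23 and 27 in WT, or 1.42 to 2.83 CPM. By contrast rpn-6.1 (WBGene00004462, chromosome III, 6959110 to 6962001) had mRNA levels of 128 and 155 CPM in ced-3 and 123 and 125 in pmk-1, against 123 and 128 in WT. The ratio of RPF to mRNA of rpn-6.2, from the summed counts of each genotype over the scaled library sizes, was 0.159 in ced-3 (95% counting interval 0.0566 to 0.363), 0.118 in pmk-1 (0.0373 to 0.290) and 0.0754 in WT (0.00889 to 0.287). These intervals cover counting error only. The fitted log2 fold of RPF over mRNA was -2.74 ± 0.68 in ced-3 and -3.26 ± 0.70 in pmk-1, against -3.84 ± 0.86 in WT (edgeR adjusted p = 0.0125, 0.0065 and 0.00832). This call was lost in ced-3 without its replicate 2, and in pmk-1 and in WT without either of the genotype's own replicates.

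RPF counts were compared with mRNA counts in each genotype, with the baseline set by TMM scaling over all 12 libraries. Both are counts over a whole gene, so the fold does not measure the number of ribosomes per mRNA. The 33 genes together held 0.59% to 0.78% of the counts of an RPF library and 0.38% to 0.50% of an mRNA library. With edgeR's quasi-likelihood test and a Benjamini-Hochberg adjusted p below 0.05 over all genes, 15 of the 33 genes were higher in RPF than in mRNA in ced-3, against 16.7% of the 13698 genes tested. In pmk-1 there were 15, against 14.7% of all genes, and in WT 12, against 13.6%. The 1 gene called lower in each genotype was rpn-6.2, where 19.1% of all genes were lower in ced-3 and 19.6% in pmk-1, against 19.6% in WT. The median log2 fold of the 33 genes was 0.42 in ced-3 and 0.38 in pmk-1, against 0.42 in WT, beside 0.08, 0.04 and 0.01 for all genes tested.

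RPF and mRNA of 1 replicate come from the same worm sample. With that pairing in the fit, the genes called higher numbered 27 in ced-3 (30.9% of all genes), 23 in pmk-1 (27.7%) and 24 in WT (25.7%). Without 1 of its own worm samples, ced-3 had 16 (without replicate 1) and 13 (without replicate 2) genes called higher in the unpaired fit. In pmk-1 there were 2 without replicate 1 and 5 without replicate 2, and in WT 2 and 4. The share of all genes called higher was also smaller without these samples, at 9.62% and 8.84% in ced-3 and 5.35% and 4.91% in pmk-1, against 3.10% and 4.81% in WT. The medians without these samples were 0.37 to 0.47.

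The called genes lay in both the core and the cap. In all 3 genotypes, 5 of 7 alpha and 4 of 7 beta genes were higher in RPF, against 2 of 10 base genes and 1 of 8 lid genes besides rpn-6.2. Of all genes, 13.6% to 16.7% were called higher in a single genotype, which is a looser count. The share of all genes called in all 3 genotypes was not computed, with or without the pairing. With worm samples paired, the counts in all 3 genotypes were 7 of 7 alpha, 4 of 7 beta, 6 of 10 base and 5 of 8 lid genes. Without the pairing, the base genes called in all 3 genotypes were rpn-13, a ubiquitin receptor gene, and rpt-5, and the lid gene was rpn-9. The genes rpt-1, rpn-12 and rpn-6.1 were called in ced-3 and pmk-1 without the pairing. Their edgeR adjusted p in WT was then 0.0534, 0.0826 and 0.0533. With the pairing all 3 passed in WT too (edgeR adjusted p = 0.0005, 0.000643 and 0.00181). The test of the difference between genotypes passed for none of the 3. The other 17 genes passed in no genotype without the pairing, with log2 folds of -0.04 (pbs-5 in WT) to 0.50 (rpn-10 in ced-3).

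Among the beta subunits the folds of RPF over mRNA spanned the whole range of the complex, rpn-6.2 aside. For pbs-3 (WBGene00003949, chromosome II, 4954480 to 4955427) the log2 ratio of RPF to mRNA, with 1 TMM scaling over all 12 libraries, was 1.18 and 1.18 in ced-3 and 1.00 and 0.99 in pmk-1, against 1.01 and 1.06 in WT. Such ratios are not those of the levels given above, which were scaled within each assay. All 6 worm samples were near or above 1. The fold of pbs-3 was 1.18 ± 0.13 in ced-3 and 0.99 ± 0.13 in pmk-1, against 1.03 ± 0.13 in WT (edgeR adjusted p = 0.000281, 0.0006 and 0.000516). For pbs-6 (WBGene00003952, chromosome III, 8243122 to 8244092) the log2 ratios were 0.99 and 1.01 in ced-3 and 0.95 and 0.81 in pmk-1, against 1.03 and 0.96 in WT, and the largest edgeR adjusted p in the 3 genotypes was 0.0015. The caspase-like subunit gene pbs-1 had ratios of 0.95 and 0.99 in ced-3 and 0.86 and 0.78 in pmk-1, against 1.12 and 0.75 in WT, with edgeR adjusted p of at most 0.00289. For pbs-7 they were 0.75 and 0.73 in ced-3 and 0.69 and 0.50 in pmk-1, against 0.53 and 0.58 in WT, with adjusted p of at most 0.0142. Thus 4 of the 7 beta genes had more RPF than mRNA in all 6 worm samples and passed in all genotypes.

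The other peptidase genes did not pass. The log2 ratios of pbs-5 were 0.10 and 0.14 in ced-3 and 0.06 and 0.0011 in pmk-1, against -0.01 and -0.06 in WT, and its fold was the lowest of the complex besides rpn-6.2 in each genotype. The pbs-5 fold was 0.12 ± 0.13 in ced-3 and 0.03 ± 0.13 in pmk-1, against -0.04 ± 0.13 in WT (edgeR adjusted p = 0.506, 0.882 and 0.868). Ratios of pbs-2 were 0.16 and 0.19 in ced-3 and 0.18 and 0.01 in pmk-1, against 0.33 and -0.12 in WT, with 1 WT sample below 0. Neither passed with worm samples paired. The gene pbs-4 had folds of 0.32 in ced-3 and 0.26 in pmk-1, against 0.20 in WT, and passed in ced-3 and pmk-1 with worm samples paired.

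**Figure D2:**
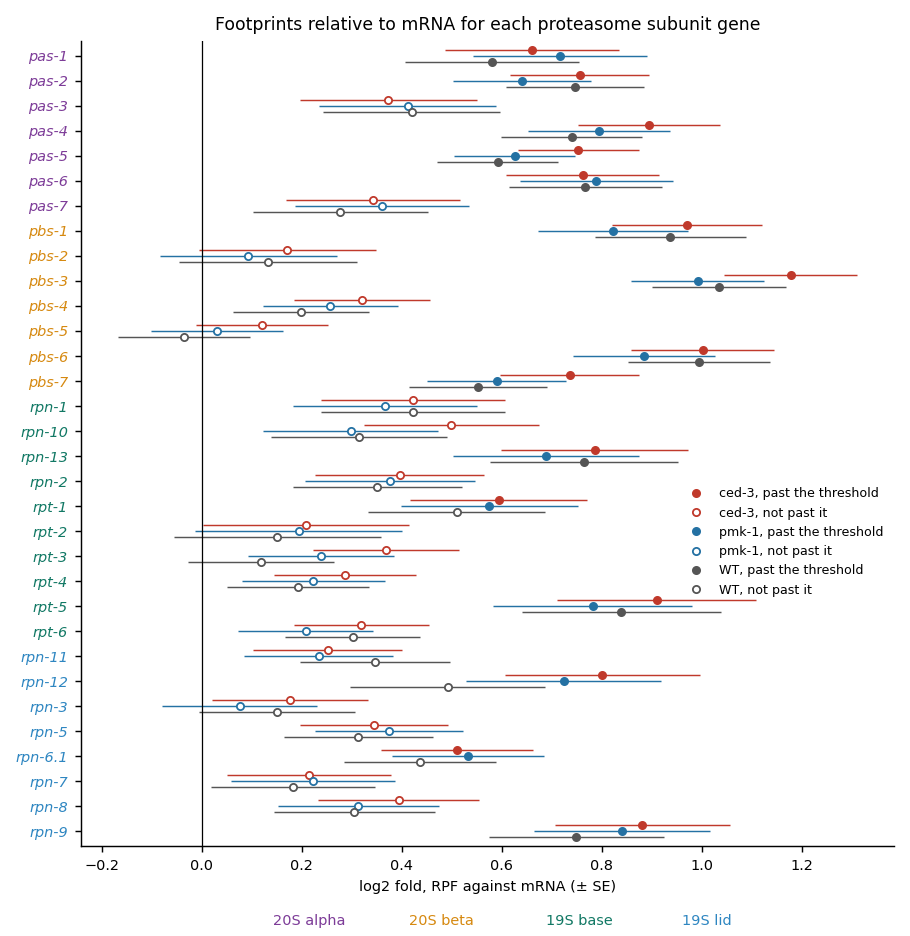
Log2 fold of RPF over mRNA with its SE for 32 proteasome subunit genes (all but rpn-6.2) in ced-3, pmk-1 and WT, from the fit of all 12 libraries, with filled points for an adjusted p below 0.05. The folds run from the WT value of -0.04 for pbs-5 to the ced-3 value of 1.18 for pbs-3, and for most genes the genotypes lie within each other's SE.

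The alpha subunit genes that passed in all genotypes were pas-1, pas-2, pas-4, pas-5 and pas-6. Their folds were 0.66 to 0.89 in ced-3, 0.63 to 0.79 in pmk-1 and 0.58 to 0.77 in WT. For pas-1 the log2 ratios were 0.62 and 0.69 in ced-3 and 0.81 and 0.61 in pmk-1, against 0.66 and 0.50 in WT, and for pas-5 0.66 and 0.84 in ced-3 and 0.73 and 0.52 in pmk-1, against 0.64 and 0.54 in WT. The genes pas-3, with folds of 0.37, 0.41 and 0.42 in ced-3, pmk-1 and WT, and pas-7, with 0.34, 0.36 and 0.28, did not pass without the pairing.

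In the cap, the ATPase gene rpt-5 (WBGene00004505, chromosome I, 5741868 to 5743571) had log2 ratios of 0.87 and 0.94 in ced-3 and 0.64 and 0.95 in pmk-1, against 0.79 and 0.88 in WT. Its fold was 0.91 ± 0.20 in ced-3 and 0.78 ± 0.20 in pmk-1, against 0.84 ± 0.20 in WT, with edgeR adjusted p of at most 0.0141. The lid gene rpn-9 had ratios of 0.81 and 0.94 in ced-3 and 0.86 and 0.82 in pmk-1, against 0.73 and 0.76 in WT, with adjusted p of at most 0.0104. For the other ATPase genes the folds in WT were 0.12 (rpt-3) to 0.51 (rpt-1), and the log2 ratios of rpt-1 were 0.52 and 0.65 in ced-3 and 0.62 and 0.53 in pmk-1, against 0.46 and 0.55 in WT. The scaffold genes rpn-1 and rpn-2, the largest of the complex, had folds of 0.35 to 0.42 in all genotypes and did not pass without the pairing. The clamp gene rpn-6.1 had ratios of 0.44 and 0.56 in ced-3 and 0.57 and 0.50 in pmk-1, against 0.50 and 0.37 in WT. Its edgeR adjusted p without the pairing was 0.0272 in ced-3 and 0.0236 in pmk-1, against 0.0533 in WT. With worm samples paired it passed in WT too (edgeR adjusted p = 0.00181).

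Across the 32 genes other than rpn-6.2, the fold of RPF over mRNA correlated with log2 coding length at r = -0.37 in ced-3 and -0.35 in pmk-1, against -0.31 in WT, as a description across genes of the same libraries. Within the 14 core genes r was -0.39 in ced-3 and -0.36 in pmk-1, against -0.34 in WT. Within the 18 cap genes it was weaker, at -0.22 in ced-3 and -0.17 in pmk-1, against -0.07 in WT. Across the 13084 tested genes with a coding length, r was -0.20 in ced-3 and -0.20 in pmk-1, against -0.18 in WT. Of the 1751 tested genes with a coding length of 600 to 860 bases, which spans the core genes, 24.7% were called higher in ced-3 and 21.2% in pmk-1, against 19.4% in WT, and their median folds were 0.36, 0.30 and 0.23. The part of length in the folds of the core genes was not tested.

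The mutants were compared with WT to ask whether loss of the caspase or of the kinase changes the mRNA or the RPF of proteasome genes. No member passed in either assay in ced-3 against WT, with 0 of 32 in RPF (0.0554% of all genes called in either direction) and 0 of 33 in mRNA (1.77%). The same held in pmk-1 against WT, with 0 of 32 in RPF (0.182%) and 0 of 33 in mRNA (0.421%), and in ced-3 against pmk-1, with 0 of 32 in RPF (8.61%) and 0 of 33 in mRNA (9.21%). By edgeR 0 members had an unadjusted p below 0.05 in any of these 6 comparisons, and DESeq2 called 0 in each. Under other settings some did, with 0 past the adjusted threshold. With library size alone there were 4 in mRNA and 6 in RPF of ced-3 against WT. In RPF that setting also gave 1 in pmk-1 against WT and 2 in ced-3 against pmk-1. Without the filter there was 1 in RPF of each mutant against WT. With pmk-1 and WT fitted alone there was 1 in RPF. Some members also had such a p in fits without a single replicate. The counts over all genes depended strongly on the setting. In RPF of ced-3 against WT 7 genes were called, against 327 without robust fitting, 1314 by DESeq2 and 1249 without ced-3 replicate 1. In ced-3 against pmk-1 no gene was called in either assay when these genotypes were fitted alone, where 3223 genes in RPF and 3129 in mRNA had an unadjusted p below 0.05. The members' count was 0 under each of these. The folds were small, and the 95% interval of no gene but rpn-6.2 reached a log2 fold of 1 or -1. In bulk worms, fewer cells that hold a transcript and less of it per cell cannot be told apart.

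In ced-3 against WT the median log2 fold of the members was 0.17 in RPF and 0.16 in mRNA, beside 0.01 and 0.00 for all genes. Folds were above 0 for 30 of 32 genes in RPF and for 31 of 33 in mRNA. Leaving rpn-6.2 aside, they ran from -0.12 to 0.46 in RPF, with 95% intervals between -0.65 and 0.93, and from -0.12 to 0.33 in mRNA, with intervals between -0.39 and 0.71. The quartiles of the members lay 0.12 apart in RPF and 0.07 in mRNA, beside 0.68 and 0.59 for all genes. Such a narrow spread was not particular to the proteasome. The quartiles lay 0.02 and 0.04 apart for 8 genes of the CCT chaperonin. They lay 0.12 and 0.08 apart for 80 cytosolic ribosomal protein genes, and 0.10 and 0.16 for 7 genes of the COP9 signalosome. Both ced-3 libraries were above both WT libraries for 7 of 32 genes in RPF, against 29.0% of all genes, and for 14 of 33 in mRNA, against 30%. Both were below for 0 in RPF (26.7% of all genes) and for 1, pas-5, in mRNA (29.8%).

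The members with the highest and lowest folds did not pass. The lid gene rpn-12 (WBGene00004468, chromosome II, 11653124 to 11654192) had RPF levels per kb of 139 and 189 in ced-3 and 176 and 147 in pmk-1, against 117 and 122 in WT. All 4 mutant libraries were above both WT libraries, and the ced-3 fold was 0.46 ± 0.20 (edgeR adjusted p = 0.228). The ATPase gene rpt-1 (WBGene00004501, chromosome V, 11980534 to 11982397) had RPF levels of 138 and 195 CPM per kb in ced-3 and 162 and 145 in pmk-1, against 126 and 135 in WT. In mRNA rpt-1 had 87.3 and 111 CPM per kb in ced-3 and 91.2 and 86.7 in pmk-1, against 79.2 and 78.7 in WT. The mutants did not overlap WT in either assay, and the ced-3 fold of rpt-1 was 0.35 ± 0.20 in RPF and 0.33 ± 0.14 in mRNA (edgeR adjusted p = 0.351 and 0.234). Another ATPase gene, rpt-2, had mRNA levels per kb of 96.3 and 132 in ced-3 and 116 and 99.98 in pmk-1, against 93.2 and 95.4 in WT. Its ced-3 fold in mRNA was 0.28 ± 0.18 (edgeR adjusted p = 0.386), with no overlap with WT. At the low end, the alpha subunit gene pas-5 (WBGene00003926, chromosome I, 10566350 to 10567300) had mRNA levels per kb of 156 and 156 in ced-3 and 169.7 and 178 in pmk-1, against 176 and 163 in WT. In RPF pas-5 had 271 and 312 CPM per kb in ced-3 and 327 and 295 in pmk-1, against 314 and 278 in WT. Both ced-3 libraries were below all others in mRNA alone, and the ced-3 fold of pas-5 was -0.02 ± 0.16 in RPF and -0.12 ± 0.11 in mRNA. The fold of pbs-2 in ced-3 was -0.12 ± 0.22 in RPF and -0.10 ± 0.12 in mRNA. The low-count gene rpn-6.2 had the highest mRNA folds of the complex, 0.52 ± 0.37 in ced-3 and 0.50 ± 0.37 in pmk-1 (edgeR adjusted p = 0.444 and 0.727).

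**Figure D3:**
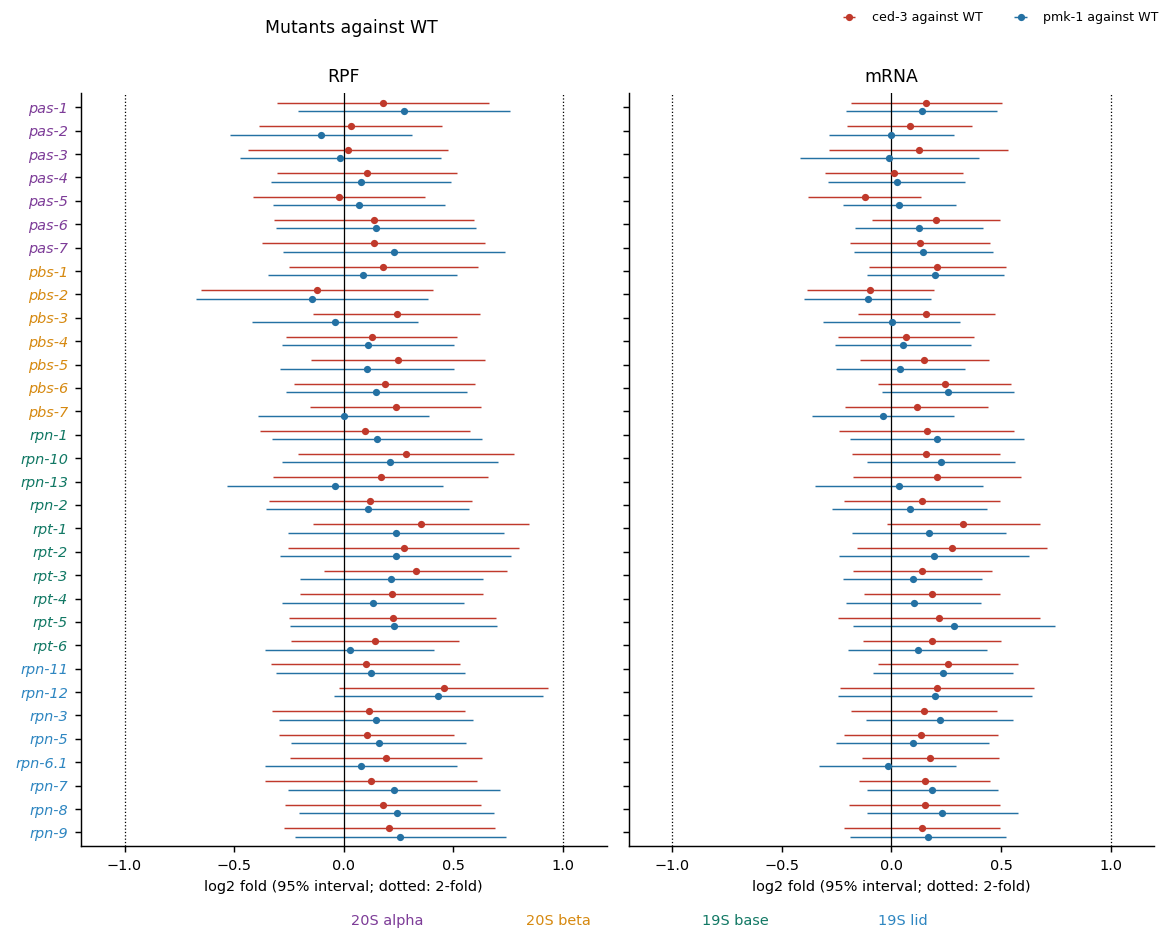
Log2 fold with its 95% interval for ced-3 against WT and pmk-1 against WT in 32 proteasome subunit genes (all but rpn-6.2), RPF on the left and mRNA on the right, with dotted lines at a 2-fold change. Most points lie to the right of 0, all intervals cross 0, and none reaches a dotted line.

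In pmk-1 against WT the median log2 fold of the members was 0.14 in RPF and 0.12 in mRNA, beside 0.01 and 0.00 for all genes. Folds were above 0 for 26 of 32 genes in RPF and for 28 of 33 in mRNA. Leaving rpn-6.2 aside, they ran from -0.15 to 0.43 in RPF, with intervals between -0.67 and 0.91, and from -0.11 to 0.29 in mRNA, with intervals between -0.42 and 0.75. Both pmk-1 libraries were above both WT libraries for 17 of 32 genes in RPF, against 22% of all genes, and for 19 of 33 in mRNA, against 22.5%. Both were below for 0 members in either assay (21.8% and 23.6% of all genes). The cap, which holds 18 of the 32 genes tested in RPF and 19 of the 33 in mRNA, held 13 of these 17 genes in RPF and 15 of these 19 in mRNA. The median mRNA fold was 0.15 over the 10 base genes and 0.19 over 8 lid genes, and 0.04 over the 7 alpha and 0.04 over the 7 beta genes.

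The RPF fold of rpn-12 in pmk-1 was 0.43 ± 0.20 (edgeR adjusted p = 0.611), from the values given above. The RPF levels of pas-1 (WBGene00003922, chromosome V, 14421566 to 14422618) were 201 and 267 CPM per kb in ced-3 and 277 and 224 in pmk-1, against 211 and 202 in WT. Both pmk-1 libraries were above WT, and the fold was 0.27 ± 0.20 (edgeR adjusted p = 0.790). In mRNA, rpt-5 had a pmk-1 fold of 0.29 ± 0.19 and pbs-6 one of 0.26 ± 0.12 (edgeR adjusted p = 0.700 and 0.603). At the low end pbs-2 had pmk-1 folds of -0.15 ± 0.22 in RPF and -0.11 ± 0.12 in mRNA. The RPF levels of pas-2 were 312 and 372 CPM per kb in ced-3 and 327 and 296 in pmk-1, against 360.4 and 309 in WT, with overlap between pmk-1 and WT and a fold of -0.10 ± 0.17. The mRNA fold of pbs-7 in pmk-1 was -0.04 ± 0.13.

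The mutants were also set against each other. In ced-3 against pmk-1 the median log2 fold of the members was 0.02 in RPF and 0.02 in mRNA, with folds above 0 for 20 of 32 and 22 of 33 genes. Both ced-3 libraries were above both pmk-1 libraries for 2 of 32 genes in RPF, pbs-3 and pbs-7 (31.3% of all genes), and for 1 of 33 in mRNA, rpn-6.1 (30.4%). Both were below for 0 in RPF (31.4%) and for pas-5 in mRNA (28.9%). The RPF levels of pbs-3 were 261 and 307 CPM per kb in ced-3 and 248 and 219 in pmk-1, against 240.1 and 240.5 in WT. Its fold in ced-3 against pmk-1 was 0.28 ± 0.16, and that of pbs-7 was 0.24 ± 0.16 (edgeR adjusted p = 0.278 and 0.364). The mRNA fold of rpn-6.1 was 0.20 ± 0.13 and that of pas-5 -0.16 ± 0.11 (edgeR adjusted p = 0.353 and 0.369).

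Other extremes of this contrast overlapped between the mutants. The ubiquitin receptor gene rpn-13 had mRNA levels per kb of 72.6 and 92.9 in ced-3 and 75.4 and 71.5 in pmk-1, against 66.5 and 76.8 in WT, and a fold of 0.17 ± 0.16 in ced-3 against pmk-1. The lid gene rpn-8, whose product pairs with RPN-11, had mRNA levels of 95.5 and 110.4 CPM per kb in ced-3 and 119.1 and 98.5 in pmk-1, against 93.1 and 92.2 in WT, with a fold of -0.08 ± 0.14. In RPF the lid scaffold gene rpn-7 had 136 and 177 CPM per kb in ced-3 and 182 and 155 in pmk-1, against 131 and 156 in WT, with a fold of -0.10 ± 0.20. The RPF fold of pas-1 in this contrast was -0.10 ± 0.20.

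The subunit genes were high together or low together in single libraries. Replicate 2 of ced-3 was the highest of the 6 libraries for 24 of 32 genes in RPF (25.9% of all genes) and for 23 of 33 in mRNA (26.6%). Replicate 1 of pmk-1 was the highest for 7 of 32 in RPF (22.5%) and 8 of 33 in mRNA (23.6%). The difference of ced-3 replicate 2 minus replicate 1 had a median over the 32 genes other than rpn-6.2 of 0.35 in RPF on the log2 scale, with 32 of 32 higher in replicate 2, and 0.27 in mRNA, with 31 of 32 higher. In pmk-1 the same difference was -0.18 in RPF, with 0 of 32 higher in replicate 2, and -0.10 in mRNA, with 7 of 32 higher. In WT it was -0.03 in both assays, with 14 and 13 of 32 higher. The medians over all genes were 0.02 or closer to 0.

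**Figure D4:**
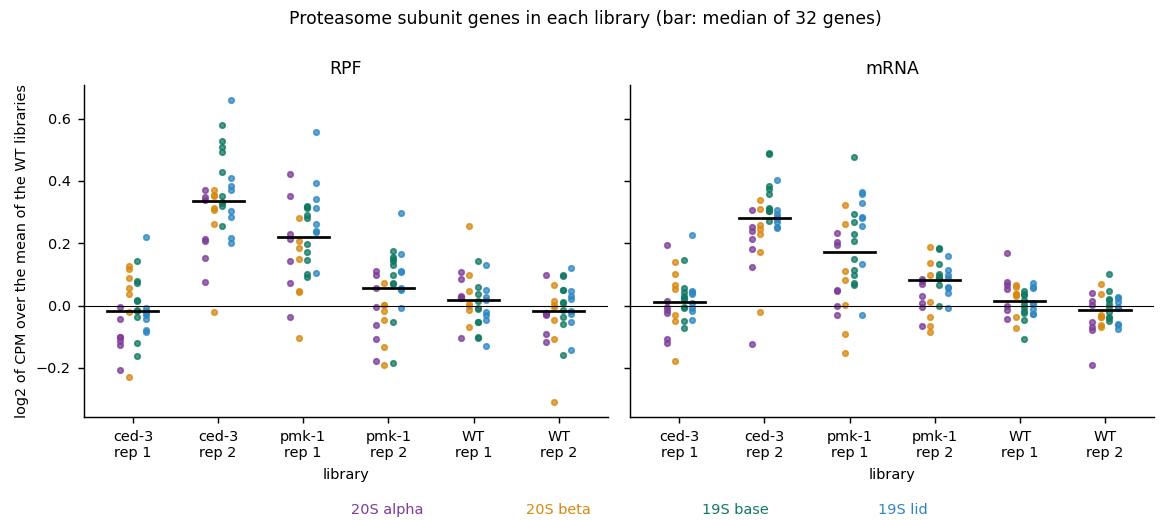
Log2 level of 32 proteasome subunit genes (all but rpn-6.2) in each library relative to the mean of the WT libraries, RPF on the left and mRNA on the right, with 1 point per gene coloured by subcomplex and a bar at the median. The points of ced-3 replicate 2 stand highest, those of pmk-1 replicate 1 next, and those of ced-3 replicate 1 lie around the WT level.

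The size of the median fold over WT depended on these libraries. Without ced-3 replicate 2 the median fold of ced-3 over WT was -0.02 in RPF and 0.02 in mRNA, and without ced-3 replicate 1 it was 0.33 and 0.27. Without pmk-1 replicate 1 the median fold of pmk-1 over WT was 0.06 in RPF and 0.08 in mRNA, and without pmk-1 replicate 2 it was 0.21 and 0.19. In ced-3 against pmk-1 the median folds were -0.17 in RPF and -0.10 in mRNA without ced-3 replicate 2. Markers of moulting differed between the same libraries. In RPF the 6 moulting markers summed to 501 and 1067 CPM in ced-3 and 2907 and 715 in pmk-1, against 251 and 257 in WT. In mRNA they summed to 414 and 656 CPM in ced-3 and 2483 and 640 in pmk-1, against 194 and 244 in WT. The moulting genes did not move as 1: in RPF of ced-3 against WT, 5 had folds above 0 and 1 below. For fbn-1 the RPF levels were 60.9 and 55.6 CPM in ced-3 and 1088 and 279 in pmk-1, against 71.0 and 97.2 in WT. Those of mlt-10 were 52.4 and 135 CPM in ced-3 and 6.06 and 8.53 in pmk-1, against 6.32 and 7.72 in WT. The 5 epidermis markers summed in RPF to 457 and 883 CPM in ced-3 and 271 and 188 in pmk-1, against 189 and 189 in WT, and in mRNA to 529 and 769 CPM in ced-3 and 275 and 239 in pmk-1, against 229 and 208 in WT. These sums hold genes with unlike patterns: in RPF the cuticle collagen gene rol-6 had 263 and 652 CPM in ced-3 and 15.3 and 33.6 in pmk-1, against 41.3 and 30.9 in WT, while dpy-7 had 31.5 and 44.6 in ced-3 and 137 and 28.1 in pmk-1, against 8.33 and 8.99 in WT. The 5 intestine markers summed in RPF to 3594 and 2402 CPM in ced-3 and 4239 and 4113 in pmk-1, against 5383 and 4942 in WT, and in mRNA to 2176 and 1600 CPM in ced-3 and 2351 and 2443 in pmk-1, against 2964 and 2995 in WT. Pharynx markers (5 genes) summed in RPF to 1411 and 1506 CPM in ced-3 and 2302 and 2495 in pmk-1, against 2216 and 2031 in WT, and in mRNA to 1629 and 1542 CPM in ced-3 and 2862 and 2499 in pmk-1, against 2142 and 1861 in WT. The part of these markers in the proteasome levels was not tested.

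Translation efficiency, the change of RPF beyond that of mRNA, was tested as the interaction of genotype and assay over all 12 libraries. By edgeR 0 of the 33 members passed in ced-3 against WT, in pmk-1 against WT and in ced-3 against pmk-1, where 0.0% of the 13698 genes passed in each. No member had an unadjusted p below 0.05 by edgeR, against 221, 172 and 251 of all genes in these 3 contrasts, and DESeq2 called 0 members and 1, 5 and 2 of all genes. With RPF and mRNA of a worm sample paired in the fit, the unadjusted count was 1 member in ced-3 against WT, rpn-12 with 0.31 ± 0.14 (edgeR unadjusted p = 0.0437, adjusted p = 0.972), and 0 in the other contrasts, against 679, 460 and 796 of all genes, and again 0 members passed. The median log2 change of the members was 0.07 in ced-3 against WT, 0.03 in pmk-1 against WT and 0.08 in ced-3 against pmk-1, beside 0.06, 0.01 and 0.06 for all genes. The 95% intervals of the 32 genes other than rpn-6.2 lay between -0.69 and 0.93.

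Apart from the low-count rpn-6.2, with 1.10 ± 1.25 in ced-3 and 0.58 ± 1.25 in pmk-1, the largest change in both mutants was that of rpn-12, 0.31 ± 0.27 in ced-3 and 0.23 ± 0.27 in pmk-1. Its log2 ratios of RPF to mRNA were 0.80 and 0.80 in ced-3 and 0.72 and 0.73 in pmk-1, against 0.40 and 0.59 in WT. All 4 mutant samples were above both WT samples, and the edgeR adjusted p was 1.000 and 1.000. Next was the ATPase gene rpt-3 in ced-3, with a change of 0.25 ± 0.21 and ratios of 0.34 and 0.39 in ced-3 and 0.31 and 0.16 in pmk-1, against 0.08 and 0.16 in WT. Both ced-3 samples of rpt-3 were above both WT samples. In pmk-1 it was pas-1, with 0.14 ± 0.24. The lowest changes were those of rpn-11 in ced-3, -0.09 ± 0.21, and pbs-1 in pmk-1, -0.12 ± 0.21. The log2 ratios of rpn-11 were 0.18 and 0.31 in ced-3 and 0.23 and 0.24 in pmk-1, against 0.43 and 0.26 in WT, and those of pbs-1 are given above. In both cases the mutant samples lay within or below the WT range. The change of pas-3 in ced-3 against WT was -0.05 ± 0.25, from ratios of 0.30 and 0.43 in ced-3 and 0.44 and 0.38 in pmk-1, against 0.29 and 0.57 in WT. In ced-3 against pmk-1 the largest changes were those of rpn-10, a ubiquitin receptor gene, 0.20 ± 0.25, and pbs-3, 0.19 ± 0.19. The ratios of rpn-10 were 0.41 and 0.56 in ced-3 and 0.36 and 0.23 in pmk-1, against 0.34 and 0.29 in WT.

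Other genes of the pathway were read beside the subunits. Of 6 genes for proteasome receptors and accessory proteins, 0 passed between genotypes in either assay, and their median fold in pmk-1 against WT was 0.23 in RPF and 0.16 in mRNA. In ced-3 against WT it was 0.07 in RPF and 0.00 in mRNA. Of 11 genes for the activation of SKN-1A and for the p97 unfoldase, which prepares substrates for the proteasome, 0 passed between genotypes, with medians of 0.06 in RPF and -0.02 in mRNA in ced-3 against WT. Within genotypes, RPF exceeded mRNA for the shuttle receptor genes ubql-1, by 0.84 ± 0.13 in ced-3 and 0.81 ± 0.13 in pmk-1, against 0.90 ± 0.13 in WT, and rad-23, by 0.71 ± 0.16, 0.69 ± 0.16 and 0.63 ± 0.16 on the log2 scale. They were the only 2 of the 6 receptor and accessory genes to pass. Of the SKN-1A and p97 genes, 3, 3 and 2 of 11 were higher in RPF in ced-3, pmk-1 and WT, among them sel-11, a ubiquitin ligase gene that passed in all genotypes. In each genotype 2 were lower, the p97 cofactor genes npl-4.1 and npl-4.2. Of all genes tested, 13.6% to 16.7% were called higher in a genotype and 19.1% to 19.6% lower.

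Other large complexes were set beside the proteasome. The 8 genes of the CCT chaperonin had a median log2 fold in ced-3 against WT of -0.38 in RPF and -0.28 in mRNA, and 80 genes of cytosolic ribosomal proteins -0.47 and -0.15, beside 0.17 and 0.16 for the proteasome. For the 7 genes of the COP9 signalosome, a complex related to the lid, the medians were -0.18 and -0.09. In pmk-1 against WT the medians were 0.04 and 0.08 for CCT, 0.13 and 0.06 for ribosomal proteins and 0.01 and 0.09 for COP9, beside 0.14 and 0.12. No gene of these 3 complexes passed in these comparisons, and the differences between complexes were not tested. In RPF against mRNA, 69 of 80 ribosomal protein genes were lower in ced-3 and 57 in pmk-1, against 59 in WT, and 0 were higher in any genotype, with medians of -1.35, -1.01 and -1.04. Of all genes tested, 13.6% to 16.7% were called higher in a genotype and 19.1% to 19.6% lower. Of 8 CCT genes 2 were higher and 1 lower in each genotype. Of 7 COP9 genes 3 were higher in ced-3 and 2 in pmk-1, against 2 in WT, among them the deneddylase gene csn-5 and cif-1, which encodes a subunit shared with an initiation factor.

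**Figure D5:**
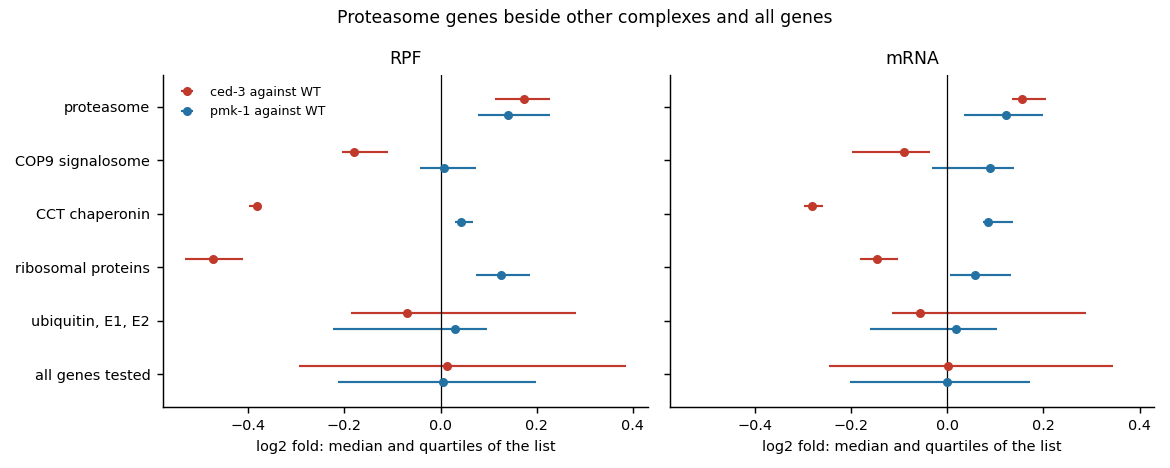
Median log2 fold with quartiles over the genes of the proteasome, COP9 signalosome, CCT chaperonin, cytosolic ribosomal proteins, ubiquitin with its E1 and E2 enzymes, and all genes tested, for ced-3 against WT and pmk-1 against WT, RPF on the left and mRNA on the right. The proteasome medians of 0.12 to 0.17 are above 0 in both mutants, while in ced-3 those of the other 3 complexes are below 0.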

How the data were processed

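Total mRNA and RPF of whole larvae were counted per gene, and the authors deposited 1 table of raw counts for 46778 genes in 12 libraries, with genotype, assay and replicate in the headers. The submitters' processing notes name Bowtie2, STAR, HTSeq and WBcel235, without parameters. Strand use, the annotation release and the handling of reads that match several genes are not given in the sources used here. Gene spans and coding lengths (longest coding transcript) came from the Ensembl annotation of WBcel235, to which 46603 of the IDs matched.

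Deposited counts were tested with edgeR 4.0.16 (R 4.3.3, limma 3.58.1): TMM scaling, filterByExpr (minimum count 10, minimum total 15), robust quasi-likelihood fits, and Benjamini-Hochberg adjustment over all genes at 0.05. Of the 33 members 32 passed the filter in RPF (12633 genes), 33 in mRNA (13536) and 33 over all 12 libraries (13698). SE is the log2 fold over the square root of F. DESeq2 1.42.0, library size alone, no filter, exon length, replicate blocks and leaving out each replicate were alternatives, and leaving out ced-3 replicate 2 with pmk-1 replicate 1, and exon length for the spread among genes, were added after seeing the data. The fits were also run on simulated counts with known fold changes, drawn independently for each library. Those counts held no effect of a shared worm sample, so they could not test the pairing.

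RPF and mRNA of 1 replicate number came from the same worms per the labels, and their deviations from the genotype means correlated at 0.62 in ced-3 and 0.66 in pmk-1, against 0.17 in WT. Between genotypes the same number gave -0.10 to 0.11, and the numbers were not used as pairs. The members and lists were chosen with earlier results of these data known. Members were named where they passed a test, had the 2 highest or 2 lowest folds of a genotype comparison, encode a peptidase subunit, were highest or lowest per kb in a subcomplex, or failed the filter.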

Additional observations from a re-analysis of the deposited data

Results flagged for a closer look

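The peptidase gene pbs-5 had opposite signs of the log2 ratio of RPF to mRNA in the mutants and in WT. These ratios used 1 TMM scaling over all 12 libraries, which sets where 0 lies. With library size alone the fold of pbs-5 was above 0 in all 3 genotypes, as it was for every member but rpn-6.2. The ratio was above 0 in both ced-3 samples (0.10 and 0.14) and both pmk-1 samples (0.06 and 0.0011), and below 0 in both WT samples (-0.01 and -0.06). The difference of the means was 0.156 between ced-3 and WT and 0.0661 between pmk-1 and WT. The interaction test did not pass in either case, with a change of 0.16 ± 0.19 in ced-3 (edgeR adjusted p = 1.00) and 0.07 ± 0.19 in pmk-1 (edgeR adjusted p = 1.00).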

How the results depend on the processing

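No member passed between genotypes, in RPF, mRNA or translation efficiency, under any alternative run. Some of these runs called no gene of all, so the members' count could not differ from 0 there. With a replicate block this was so in both assays of ced-3 against WT and in RPF of pmk-1 against WT. That block called 0.20% of all genes in mRNA of pmk-1 against WT. In ced-3 against pmk-1 it called 3.93% in RPF and 4.17% in mRNA. With library size alone no gene of all was called for translation efficiency. RPF against mRNA depended on the setting: with a replicate block for the worm sample 28 members passed in ced-3 and 25 in WT (beside 57.5% and 52.4% of all genes), and with library size alone 28 in ced-3 and 29 in pmk-1, against 26 in WT (beside 38.4%, 37.97% and 34.9% of all genes, 23.4%, 23.1% and 20.1% in the higher direction), with medians of 0.59 in pmk-1, against 0.60 in WT. That scaling also moved the all-gene median to 0.26 in ced-3 and 0.26 in pmk-1, against 0.19 in WT. It reversed the sign of folds that had not passed, those of rpn-8 in mRNA (0.024) and of rpn-7 (0.018) and pas-1 (0.027) in RPF in ced-3 against pmk-1, and of pbs-2 (0.020) and pas-5 (0.12) in RPF in ced-3 against WT. With exon length the core to cap ratio in RPF was 1.64 in ced-3 and 1.62 in pmk-1, against 1.79 in WT.

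Leaving out each replicate in turn gave 13 to 17 members past the threshold in ced-3, 2 to 20 in pmk-1 and 2 to 19 in WT, beside 20.8% to 32.99%, 14.3% to 37.1% and 10.9% to 35.6% of all genes. In WT the median ranged from 0.37 to 0.44. In mRNA the members' median ranged from 0.022 to 0.27 in ced-3 against WT, from 0.079 to 0.19 in pmk-1 against WT and from -0.097 to 0.15 in ced-3 against pmk-1. Folds that changed sign had these ranges: pbs-7 -0.092 to 0.0094 in mRNA of pmk-1 against WT, rpn-8 -0.21 to 0.060 and rpn-13 -0.010 to 0.34 in mRNA of ced-3 against pmk-1, pbs-2 -0.38 to 0.20 and pas-5 -0.13 to 0.079 in RPF of ced-3 against WT. In RPF of pmk-1 against WT they were -0.41 to 0.16 for pbs-2 and -0.22 to 0.0100 for pas-2, and in ced-3 against pmk-1 -0.32 to 0.072 for rpn-7 and -0.32 to 0.091 for pas-1. For translation efficiency they were -0.21 to 0.0088 for rpn-11 and -0.19 to 0.055 for pas-3 in ced-3, -0.36 to 0.084 for pbs-1 and -0.012 to 0.23 for pas-1 in pmk-1, and -0.15 to 0.048 for pas-1 and -0.11 to 0.019 for pas-3 in ced-3 against pmk-1. With both ced-3 replicate 2 and pmk-1 replicate 1 left out, the mRNA median was 0.012 in ced-3 and 0.079 in pmk-1 against WT, the fold of pbs-7 in pmk-1 mRNA was 0.00954, and the efficiency change of pas-1 in ced-3 against pmk-1 was 0.00498. The cause of these changes was not tested. Of the alternatives for single genes, 731 kept sign and call, 45 lost the call and 28 reversed, and for main values 313 stayed close and 23 moved.

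With 2 samples per genotype, the fitted intervals allow folds of the 32 members other than rpn-6.2 between genotypes of up to 0.93 on the log2 scale in RPF and 0.75 in mRNA, and changes within those intervals cannot be told from none. RPF libraries held fewer counts than mRNA libraries, and rpn-6.2, whose mRNA interval reaches 1.43, rests on 0 to 5 RPF counts per library.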

Other observations

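In ced-3 against pmk-1, 8.61% of all genes were called in RPF and 9.21% in mRNA. Beside the subunits, 2 genes for ubiquitin-conjugating (E2) enzymes passed there, with higher levels in ced-3. They were the only genes of the ubiquitin, E1 and E2 list to pass between genotypes (22 tested in RPF and 23 in mRNA). These calls depended on the setting: in ced-3 against pmk-1 no gene of all passed when these genotypes were fitted alone, nor in RPF without pmk-1 replicate 1 or without either WT replicate. For ubc-8 the RPF levels were 26.99 and 20.8 CPM in ced-3 and 11.05 and 10.7 in pmk-1, against 11.96 and 14.6 in WT. Its mRNA levels were 8.9 and 7.6 CPM in ced-3 and 4.39 and 4.29 in pmk-1, against 3.72 and 3.25 in WT. Both ced-3 libraries were above the other 4 in each assay. The fold of ubc-8 in ced-3 against WT mRNA was 1.24 ± 0.20 (edgeR adjusted p = 0.0498, a comparison in which no gene passed with a replicate block or without either WT replicate), and in ced-3 against pmk-1 it was 1.13 ± 0.22 in RPF and 0.93 ± 0.20 in mRNA (edgeR adjusted p = 0.0377 and 0.0442).

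The other gene, ubc-3, had RPF levels of 94.0 and 109 CPM in ced-3 and 49.9 and 48.0 in pmk-1, against 71.5 and 55.5 in WT. In mRNA ubc-3 had 81.6 and 92.0 CPM in ced-3 and 48.7 and 40.8 in pmk-1, against 55.2 and 48.17 in WT. Both ced-3 libraries were again above all others, and pmk-1 was below WT in RPF. The fold of ubc-3 in ced-3 against pmk-1 was 1.05 ± 0.18 in RPF and 0.96 ± 0.15 in mRNA (edgeR adjusted p = 0.0344 and 0.0296), while in ced-3 against WT it did not pass.

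Within genotypes, the genes of this list that were higher in RPF than in mRNA numbered 7 of 23 in ced-3 and 8 in pmk-1, against 8 in WT. In each genotype 1 was lower. Of all genes tested, 13.6% to 16.7% were called higher in a genotype and 19.1% to 19.6% lower. Those named by rank were ubc-12, the E2 for the ubiquitin-like protein NEDD8, with log2 folds of 1.81 ± 0.16 in ced-3 and 1.44 ± 0.16 in pmk-1, against 1.53 ± 0.16 in WT, and ubc-13 in the mutants and ubc-8 in WT. The lower gene was ubq-2, a ubiquitin fused to a ribosomal protein, with -1.28 ± 0.22 in ced-3 and -0.95 ± 0.21 in pmk-1, against -0.97 ± 0.21 in WT.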
